A study of Mus musculus with 8 samples.

Results

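Fibrinogen is the soluble plasma protein that thrombin turns into the fibrin mesh of a clot, and plasminogen activators are the proteases that start the removal of that mesh. The 8 genes described here are set by a list of names, chosen with earlier results of these data known, out of 55919 genes measured in the kidney: Fga, Fgb and Fgg, which encode the Aα, Bβ and γ chains of fibrinogen; F3, which encodes tissue factor, the cell surface starter of coagulation; Thbd, which encodes thrombomodulin, the endothelial protein that turns thrombin towards anticoagulation; Plau and Plat, which encode the urokinase-type and the tissue-type plasminogen activator; and Plaur, which encodes the urokinase receptor. All 8 passed the filter on low values, which asked for 1 FPKM in 2 libraries or more. Fgb passed it only through injured libraries, since it lay under 1 FPKM in every non-injured library. Whole kidneys of female mice of a C57BL/6 x 129S4/SvJae background were sequenced in 4 groups with 2 libraries each: Tet1 KO kidneys 3 days after 45 min of unilateral ischemia by clamping of the left renal pedicle (KO-I/R 3D), WT kidneys after the same procedure (WT-I/R 3D), non-injured Tet1 KO kidneys (KO-NI) and non-injured WT kidneys (WT-NI). The KO mice lacked Tet1, an enzyme that oxidises methylated cytosine in DNA, in the whole body, and WT mice were littermates. RNA of 3 mice was pooled for each library, so the spread between the 2 libraries of a group is a spread between pools. The sources used here give neither the age of the sequenced mice nor whether injured and non-injured kidneys shared mice.

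Liver cells make nearly all of the fibrinogen in blood, where its output is raised by interleukin-6 as part of the acute phase response. Kidney tubules are known to transcribe the same genes at a low level and to raise them after ischemia. Urokinase is made by tubule cells and released into urine, whereas tissue-type activator and thrombomodulin are best known from endothelium. Both activators cut plasminogen to plasmin, which cuts fibrin. Inhibitors of the serpin family hold the activators in check.

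The libraries held 13961281 to 18480858 reads in genes. Values are FPKM, that is, reads set relative to gene length and to a library total that carries the authors' scaling between libraries. The tests are limma's, run on log2(FPKM + 0.1) over 15650 genes, and a gene was called when its adjusted p was under 0.05 and its absolute log2 fold change over 0.5. Tet1 was listed at 0.189 and 0.158 FPKM in KO-I/R 3D libraries, 0.243 and 0.313 in WT-I/R 3D libraries, 0.551 and 0.382 in KO-NI libraries and 0.378 and 0.323 in WT-NI libraries. These values rest on 51 to 96 reads and cover the whole gene, so they do not check a deleted part of it, and the KO-NI libraries lay above the WT-NI libraries. Between the KO-NI libraries 1804 genes differed more than 2-fold, against 723 to 838 genes between the libraries of each other group. Mitochondrial genes took 10.9% of the reads of the first KO-NI library and 4.76% to 7.70% of the reads of the others. Markers of the tissue were present in all groups. Summed markers of the proximal tubule stood at 4080 to 6870 FPKM in KO-I/R 3D libraries, 9226 to 10560 in WT-I/R 3D libraries, 14047 to 28102 in KO-NI libraries and 14891 to 15442 in WT-NI libraries.

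The 3 fibrinogen genes lie side by side on mouse chromosome 3 (GRCm38, GENCODE M21). Fgg (ENSMUSG00000033860) spans 83007724 to 83015049 on the plus strand, Fga (ENSMUSG00000028001) spans 83026076 to 83033627 on the plus strand, and Fgb (ENSMUSG00000033831) spans 83040141 to 83049863 on the minus strand, so Fgb is read towards the other two. Gaps of 11026 and 6513 bases separate them, and the whole cluster covers 42140 bases. The other members lie apart. F3 (ENSMUSG00000028128) is on the same chromosome at 121723537 to 121735048, Plau (ENSMUSG00000021822) on chromosome 14 at 20836660 to 20843385, Plaur (ENSMUSG00000046223) on chromosome 7 at 24462484 to 24475968, Plat (ENSMUSG00000031538) on chromosome 8 at 22757727 to 22782844, all on the plus strand, and Thbd (ENSMUSG00000074743) on chromosome 2 at 148404466 to 148408188 on the minus strand. Only Fgg overlaps another annotated gene, the antisense lincRNA Gm30097, by 115 exonic bases. Whether counting used strand is not stated, so reads in those bases cannot be told apart. Gm30097 had 5 to 20 reads in any library.

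Promoter windows from RefSeq (GRCm38.p6, 250 bases before to 50 after the start) matched 5 of the 8 members: Fga, Fgb, Fgg, Plaur and F3. Plau, Plat and Thbd had no entry. These 5 are the members with a window among the 6 that rose in injured kidneys of KO mice, and the bases before the start are shown because the chains of fibrinogen are a textbook case of liver promoters that hold elements for HNF1, C/EBP and interleukin-6. The lines run 5′ to 3′ on the strand of the gene. Capitals mark matches on either strand to the letters named next. Matches to the looser STAT letters, given after the lines, are not marked. The letters GTTAAT were searched for HNF1. The liver factor family C/EBP was searched by TTGCNNAA. Sites of AP-1 were searched by TGANTCA. The TATA box was searched as TATAAA. The interleukin-6 response element was searched as CTGGGA, which was added after the sequences were seen. The windows shown are chr3:83025903-83026075 (plus) for Fga, where the line stops before the first GENCODE exon, chr3:83049864-83050113 (minus) for Fgb, chr3:83007474-83007723 (plus) for Fgg, chr7:24462233-24462482 (plus) for Plaur and chr3:121723287-121723536 (plus) for F3.
Fga: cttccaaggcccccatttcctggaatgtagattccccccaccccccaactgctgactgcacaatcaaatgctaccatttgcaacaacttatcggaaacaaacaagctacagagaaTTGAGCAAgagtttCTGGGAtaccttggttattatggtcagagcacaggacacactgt
Fgb: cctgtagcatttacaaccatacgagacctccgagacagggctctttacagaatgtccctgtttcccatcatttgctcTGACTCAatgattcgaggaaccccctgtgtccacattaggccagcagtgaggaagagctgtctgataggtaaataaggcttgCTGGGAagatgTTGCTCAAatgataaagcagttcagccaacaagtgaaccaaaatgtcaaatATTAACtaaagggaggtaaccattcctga
Fgg: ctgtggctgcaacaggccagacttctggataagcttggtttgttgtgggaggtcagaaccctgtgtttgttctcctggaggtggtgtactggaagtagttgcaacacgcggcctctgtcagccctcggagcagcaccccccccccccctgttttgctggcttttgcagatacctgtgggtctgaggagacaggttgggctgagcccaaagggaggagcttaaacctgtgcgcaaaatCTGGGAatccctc
Plaur: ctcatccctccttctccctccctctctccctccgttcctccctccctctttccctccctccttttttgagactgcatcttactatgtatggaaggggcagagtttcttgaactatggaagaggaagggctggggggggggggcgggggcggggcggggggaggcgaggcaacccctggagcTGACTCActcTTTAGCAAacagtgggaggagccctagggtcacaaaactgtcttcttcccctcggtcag
F3: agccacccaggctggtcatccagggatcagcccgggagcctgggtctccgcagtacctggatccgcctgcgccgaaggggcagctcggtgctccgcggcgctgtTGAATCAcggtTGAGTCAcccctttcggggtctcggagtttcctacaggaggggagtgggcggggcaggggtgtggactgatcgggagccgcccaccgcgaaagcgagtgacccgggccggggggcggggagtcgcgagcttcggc

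Fga and Fgb held the same 3 kinds of match. Each had a C/EBP match, at -135 in Fga and -80 in Fgb counted from the RefSeq start, a CTGGGA match a few bases away, at -121 in Fga and -91 in Fgb, and an HNF1 match close to the start, at -43 in Fga and -29 in Fgb. The match at -43 lies past the end of the Fga line printed here, inside the GENCODE span of the gene. Fgg held a CTGGGA match at -13 and no other match. Plaur held an AP-1 match at -69 beside a C/EBP match at -59, and F3 held a pair of AP-1 matches at -146 and -135. Fgb also held an AP-1 match at -173 and, after the start, a CTGGGA match at 45, and F3 held a TATA match at 44. Of all 32851 promoter windows of the same length, 7.1% held the HNF1 letters, 10.8% the C/EBP letters, 7.81% the AP-1 letters, 13.6% the TATA letters and 31.8% the CTGGGA letters. The looser STAT letters TTNCNNNAA stood in 36.6% of all windows and in those of Fga (3 matches), Fgb (2 matches, of which the one at -80 overlaps the C/EBP match) and Plaur (1 match). A match is a run of letters, not a shown binding site.

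**Figure D1:**
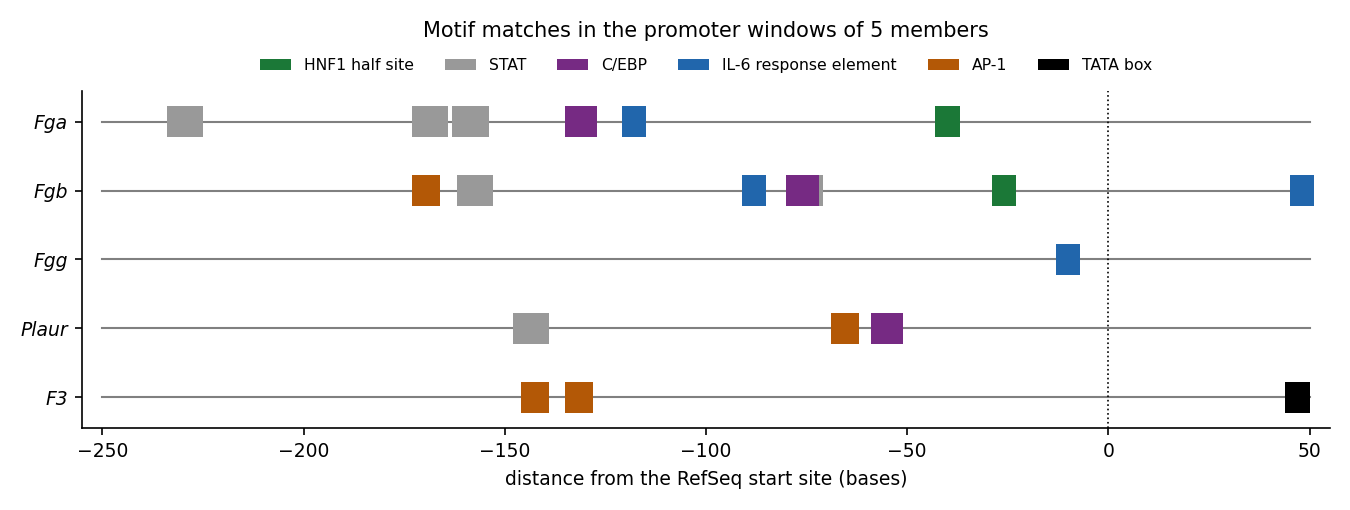
Positions of motif matches in the promoter windows of Fga, Fgb, Fgg, Plaur and F3, as distance in bases from the RefSeq start (dotted line); coloured blocks are matches on either strand. Grey blocks are matches to the looser STAT letters; Fga and Fgb each show an HNF1 match close to the start with C/EBP and CTGGGA matches before it, Fgg shows 1 CTGGGA match, and Plaur and F3 show AP-1 matches.

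In non-injured kidney the members covered a wide range of levels. Plau was the most abundant by far, at 423 and 315 FPKM in KO-NI libraries and 308 and 279 FPKM in WT-NI libraries, and ranked 90th in KO-NI and 121st in WT-NI by mean FPKM among all 55919 genes. Thbd (10.6 to 12.6 FPKM), Plat (7.76 to 9.39), Fga (6.58 to 8.25) and F3 (5.86 to 7.68) followed over the 4 non-injured libraries. The ranges of Plat, Fga and F3 overlap, so their order is not settled by these libraries. Fgg stood at 2.58 to 3.79 FPKM and Plaur at 1.63 to 2.45 FPKM. Fgb was lowest, at 0.325 to 0.787 FPKM from 17 to 42 reads.

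Fgg and Fgb had the largest log2 fold changes of the members in injured kidneys of both genotypes. Fgg had 38.2 and 50.05 FPKM in KO-I/R 3D libraries, against 2.58 and 3.79 FPKM in KO-NI libraries, and 10.3 and 25.4 FPKM in WT-I/R 3D libraries, against 3.09 and 3.72 FPKM in WT-NI libraries. Both libraries of each injured group lay above all non-injured libraries. Its log2 fold change was 3.76 (SE 0.41, adjusted p = 0.000912, limma) in KO and 2.22 (SE 0.41, adjusted p = 0.0149) in WT. Fgb had 5.81 and 10.4 FPKM in KO-I/R 3D libraries, against 0.605 and 0.325 FPKM in KO-NI libraries, and 1.86 and 3.75 FPKM in WT-I/R 3D libraries, against 0.548 and 0.787 FPKM in WT-NI libraries. This gave a log2 fold change of 3.85 (SE 0.45, adjusted p = 0.00111) in KO and 1.86 (SE 0.45, adjusted p = 0.0326) in WT. Fgb passed the filter on low values only through injured libraries, so it could be tested only because it was high there. The call of Fgb in WT was lost without that filter (adjusted p = 0.0706, limma).

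Fga, the most abundant chain gene in non-injured kidney, was called in KO but not in WT. It had 26.4 and 41.2 FPKM in KO-I/R 3D libraries, against 7.54 and 6.58 FPKM in KO-NI libraries, and rose by a log2 fold change of 2.21 (SE 0.36, adjusted p = 0.00367, limma). In WT-I/R 3D libraries it had 9.61 and 20.7 FPKM, against 8.25 and 8.20 FPKM in WT-NI libraries. The first WT-I/R 3D library lay close to the non-injured ones, and the log2 fold change of 0.77 (SE 0.36, adjusted p = 0.185) did not pass the test.

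The make-up of the chain transcripts differed between injured and non-injured kidneys. Fga took 37.5% to 44.2% of the summed FPKM of the 3 genes in the 4 I/R 3D libraries, against 61.5% to 70.3% in the 4 NI libraries. Fgg took 47.2% to 54.2% in I/R 3D libraries, against 24.1% to 35.5% in NI libraries, and Fgb took 7.51% to 10.3%, against 3.04% to 6.19%. The ranges of injured and non-injured libraries did not overlap for any chain. The ratio of Fgg to Fga was 1.45 (95% exact binomial interval 1.34 to 1.56) and 1.22 (1.15 to 1.29) in KO-I/R 3D libraries and 1.07 (0.932 to 1.22) and 1.23 (1.13 to 1.34) in WT-I/R 3D libraries. In KO-NI libraries it was 0.343 (0.255 to 0.455) and 0.576 (0.457 to 0.722), and in WT-NI libraries 0.375 (0.295 to 0.472) and 0.453 (0.362 to 0.563). These intervals cover counting error only. The ratio was chosen after the values were seen and is given without a test. Leaving out any 1 library kept the mean difference of the log2 ratio, I/R 3D minus NI, between 1.42 and 1.67. Fibrin-forming protein needs all 3 chains in equal number, and transcripts of the chain genes together summed to 70.5 and 101.6 FPKM in KO-I/R 3D libraries, 21.7 and 49.9 FPKM in WT-I/R 3D libraries, 10.73 and 10.70 FPKM in KO-NI libraries and 11.9 and 12.7 FPKM in WT-NI libraries.

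**Figure D2:**
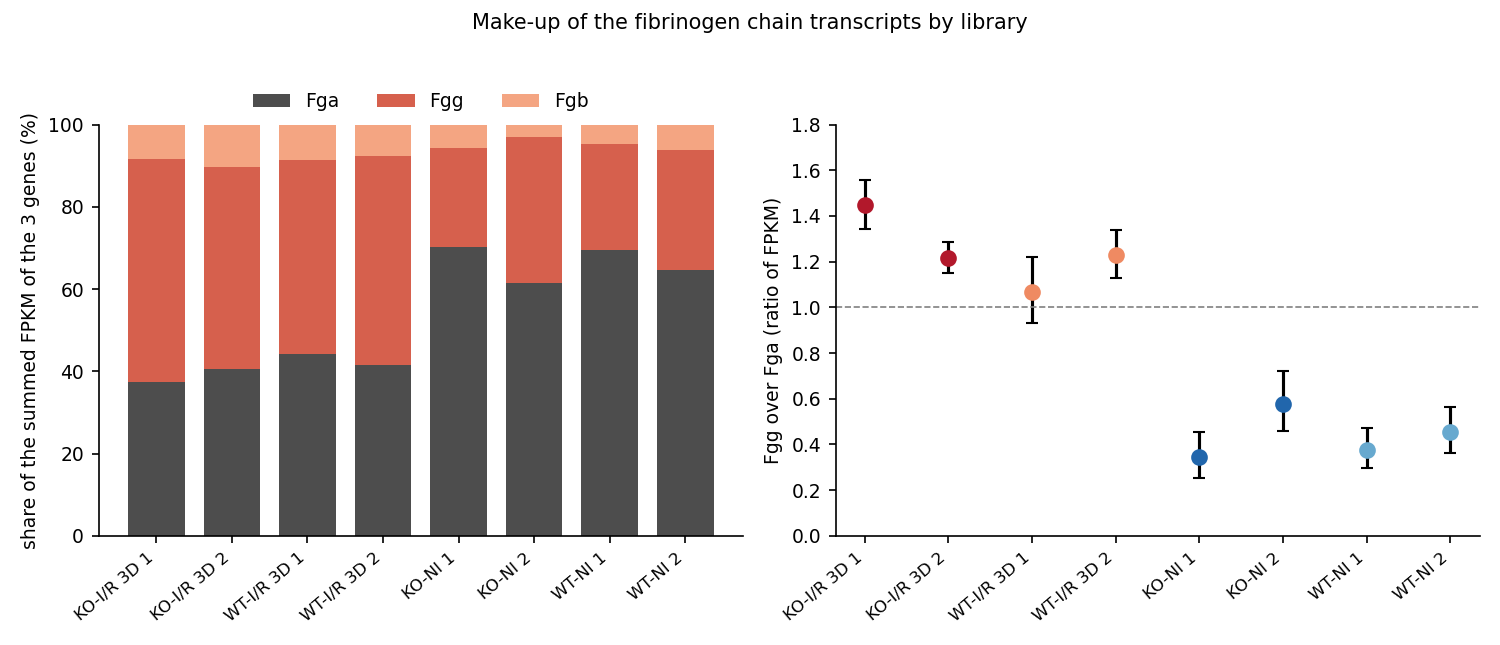
Left, share of the summed FPKM (percent, axis from 0) of Fga, Fgg and Fgb in each library; right, the ratio of Fgg to Fga with 95% exact binomial intervals for counting error, dashed line at equal FPKM. Fga is the largest share in all 4 NI libraries (61.5% to 70.3%) and Fgg in all 4 I/R 3D libraries (47.2% to 54.2%).

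Plrg1, the next gene beyond Fgb, lies 5658 bases away from it. It had 13.3 and 12.5 FPKM in KO-I/R 3D libraries, 10.2 and 11.2 in WT-I/R 3D libraries, 10.1 and 9.94 in KO-NI libraries and 9.73 and 9.20 in WT-NI libraries. Its log2 fold change was 0.36 (SE 0.11, adjusted p = 0.0439, limma) in KO and 0.18 (SE 0.11, adjusted p = 0.321) in WT, under the fold threshold in each case. On the other side, beyond Gm30097, the protein-coding gene Lrat had 0.375 to 1.01 FPKM over all libraries.

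F3, the starter of coagulation, rose with the chain genes. It had 23.5 and 31.4 FPKM in KO-I/R 3D libraries, against 6.77 and 7.35 FPKM in KO-NI libraries, and 12.0 and 15.5 FPKM in WT-I/R 3D libraries, against 5.86 and 7.68 FPKM in WT-NI libraries. The 4 groups formed 3 levels with no overlap: KO-I/R 3D, then WT-I/R 3D, then all non-injured libraries. The log2 fold change was 1.93 (SE 0.21, adjusted p = 0.000903, limma) in KO and 1.01 (SE 0.21, adjusted p = 0.0208) in WT.

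Thbd, whose product opposes clotting, was not called in any comparison of FPKM and ran from 10.6 to 13.6 FPKM over all libraries. It had 12.1 and 13.6 FPKM in KO-I/R 3D libraries, against 12.6 and 11.1 FPKM in KO-NI libraries, and 12.5 and 13.5 FPKM in WT-I/R 3D libraries, against 10.6 and 12.4 FPKM in WT-NI libraries. Its log2 fold change was 0.12 (adjusted p = 0.510, limma) in KO and 0.19 (adjusted p = 0.391) in WT. As TPM it was called in KO (0.53, adjusted p = 0.0208), with the median of all genes at 0.38 on that scale. F3 exceeded Thbd per length in both KO-I/R 3D libraries and lay below it in all 4 NI libraries. The WT-I/R 3D libraries were split, with F3 below Thbd in replicate 1 and above it in replicate 2. Endothelial markers, which mark the cells best known for Thbd, summed to 191 to 226 FPKM in KO-I/R 3D libraries, 240 to 290 in WT-I/R 3D libraries, 204 to 250 in KO-NI libraries and 254 to 256 in WT-NI libraries. Of these 12 markers none rose and 3 fell in KO, and none rose and 1 fell in WT (Kdr, a receptor for VEGF, log2 fold change -1.45). Among all tested genes 19.4% fell in KO and 8.45% in WT, so the falls are near these shares. In whole tissue, fewer cells of a type and less RNA per cell cannot be told apart.

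The activators behaved differently from each other. Plat had 26.7 and 26.6 FPKM in KO-I/R 3D libraries, against 9.39 and 9.001 FPKM in KO-NI libraries, and 20.7 and 24.8 FPKM in WT-I/R 3D libraries, against 7.76 and 8.09 FPKM in WT-NI libraries. The log2 fold changes were 1.53 (SE 0.12, adjusted p = 0.000443, limma) in KO and 1.50 (SE 0.12, adjusted p = 0.00232) in WT. The difference of these responses was 0.02 (SE 0.18, adjusted p = 0.979), with a spread that does not show them to be equal. Plau had 313 and 401 FPKM in KO-I/R 3D libraries, against 423 and 315 FPKM in KO-NI libraries, and 337 and 379 FPKM in WT-I/R 3D libraries, against 308 and 279 FPKM in WT-NI libraries. In KO the groups overlapped and the log2 fold change was -0.04 (SE 0.20, adjusted p = 0.879). In WT both injured libraries lay above both non-injured ones, with a log2 fold change of 0.29 (SE 0.20, adjusted p = 0.359). As TPM, a scale that fixes the sum of all genes and put the median log2 fold change of all genes at 0.38 in KO, Plau had 0.36 in KO, so its sign there depends on the scale. Plau exceeded Plat 11.7-fold and 15.1-fold in KO-I/R 3D libraries and 16.3-fold and 15.3-fold in WT-I/R 3D libraries, against 45.0-fold and 35.0-fold in KO-NI libraries and 39.7-fold and 34.5-fold in WT-NI libraries, by FPKM.

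Plaur, the receptor that holds urokinase at the cell surface, rose while its ligand gene was not called. It had 11.8 and 15.9 FPKM in KO-I/R 3D libraries, against 1.63 and 1.70 FPKM in KO-NI libraries, and 5.73 and 10.97 FPKM in WT-I/R 3D libraries, against 2.31 and 2.45 FPKM in WT-NI libraries. The log2 fold change was 2.97 (SE 0.30, adjusted p = 0.000727, limma) in KO and 1.69 (SE 0.30, adjusted p = 0.0130) in WT. Myeloid cells are known to carry this receptor, and summed macrophage and monocyte markers stood at 643 to 1005 FPKM in KO-I/R 3D libraries and 572 to 637 in WT-I/R 3D libraries, against 73.4 to 77.8 in KO-NI libraries and 93.7 to 105 in WT-NI libraries. Of these 12 markers 11 rose in KO and 11 rose in WT, where 17.9% and 8.90% of all tested genes rose. Among them Mrc1, Ccr2, Fcgr1, Itgam and Ly6c2 passed the filter on low values only through injured libraries. The part of myeloid cells in the rise of Plaur was not tested.

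**Figure D3:**
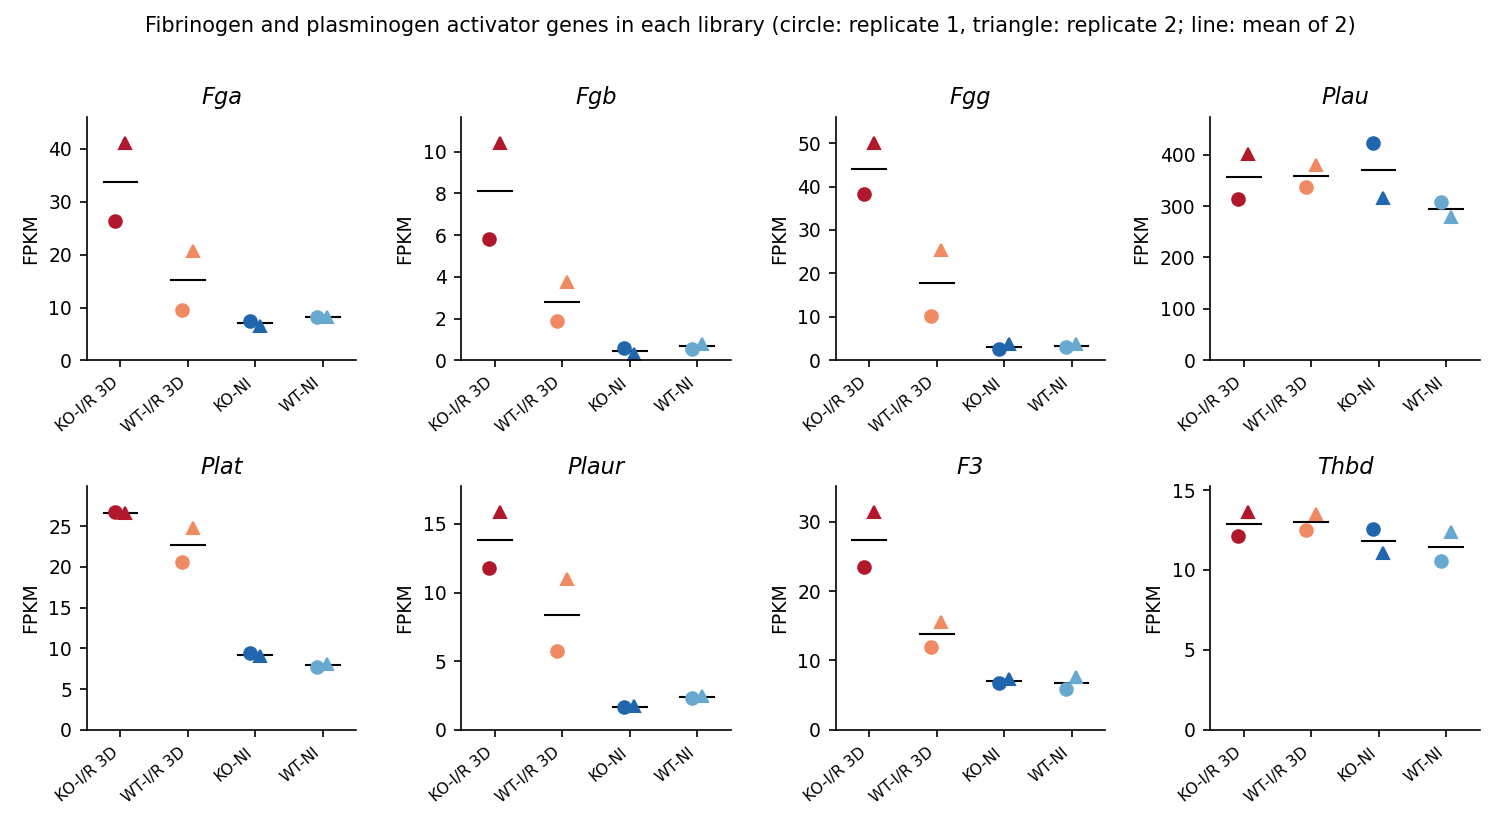
FPKM of each member in each of the 8 libraries (linear axes from 0; circles are replicate 1, triangles replicate 2, lines the mean of 2 libraries). Fga, Fgb, Fgg, Plaur and F3 are highest in both KO-I/R 3D libraries, Plat is at 20.7 FPKM or above in all I/R 3D libraries, and Plau and Thbd overlap between KO-I/R 3D and KO-NI.

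Counted over the list, 6 of 8 members rose in KO-I/R 3D against KO-NI (all but Plau and Thbd) and none fell, where 17.9% of all tested genes rose and 19.4% fell. In WT-I/R 3D against WT-NI 5 of 8 rose (Fgg, Fgb, Plaur, Plat and F3) and none fell, where 8.90% of all tested genes rose and 8.45% fell. Both counts include Fgb, which passed the filter on low values only through injured libraries. The median log2 fold change of the members was 2.07 in KO and 1.26 in WT, beside -0.01 over all tested genes in each. Both injured libraries lay above both non-injured ones for 6 members in KO (32.5% of all genes) and for all 8 in WT (34.5% of all genes). The 6 calls in KO held in each of 15 fits with other settings or without 1 library. In WT only Plat was called in all 15. With either WT-NI library or WT-I/R 3D replicate 2 left out, 1 member was called (Plat), and with WT-I/R 3D replicate 1 left out 3 were (Fgg, Plaur and Plat).

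**Figure D4:**
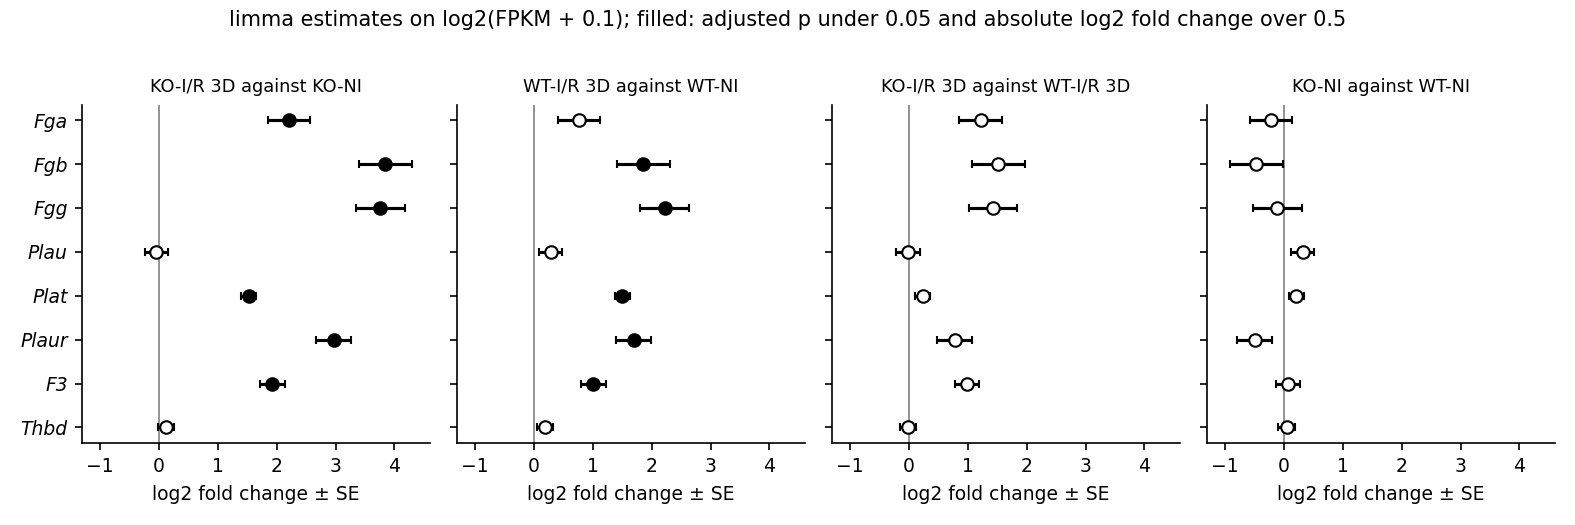
log2 fold change with its standard error (horizontal axis) of each member in 4 comparisons, from limma on log2(FPKM + 0.1); filled points were called. The 6 filled points in KO-I/R 3D against KO-NI run from 1.53 (Plat) to 3.85 (Fgb), and no point is filled in either comparison of KO with WT.

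Injured KO kidneys had higher levels of most members than injured WT kidneys, but no member and no other gene was called (0% of 15650 genes, smallest adjusted p over all genes 0.0862, limma). Both KO-I/R 3D libraries lay above both WT-I/R 3D libraries for 6 of 8 members, Fga, Fgb, Fgg, F3, Plaur and Plat, as they did for 28.0% of all tested genes. The log2 fold change was 1.52 for Fgb (SE 0.45, adjusted p = 0.175), 1.43 for Fgg (SE 0.41, adjusted p = 0.167), 1.22 for Fga (SE 0.36, adjusted p = 0.174) and 0.99 for F3 (SE 0.21, adjusted p = 0.105). Plaur had 0.78 (SE 0.30) and Plat 0.24 (SE 0.12), while Plau and Thbd had -0.01 and -0.02. At an unadjusted p under 0.05, 5 members were higher (all but Plat, Plau and Thbd) and none lower, where 5.61% of all genes were higher. With limma voom on the reads, F3 was called (log2 fold change 0.99, adjusted p = 0.0343), where 0.449% of the genes tested by that method were called higher. The chain genes then had adjusted p of 0.0501 (Fgb), 0.0552 (Fgg) and 0.0701 (Fga). The adjusted p of F3 ran from 0.0343 to 0.569 over the 15 fits. Without the first or the second KO-NI library, which also set the shared spread, 655 and 662 genes were called and no member was among them. The second library of each injured group had the higher value for Fga, Fgb, Fgg, Plaur and F3.

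The injury responses of KO and WT were also compared with each other. The difference of the log2 fold changes, KO minus WT, was 1.99 for Fgb (SE 0.64, adjusted p = 0.411, limma), 1.54 for Fgg (SE 0.58, adjusted p = 0.457), 1.44 for Fga (SE 0.51, adjusted p = 0.437), 1.27 for Plaur (SE 0.42, adjusted p = 0.422) and 0.92 for F3 (SE 0.30, adjusted p = 0.413). No gene was called (0% of all tested, smallest adjusted p 0.390). At an unadjusted p under 0.05 these 5 members were higher, where 3.60% of all genes were. A larger rise of the chain genes in KO is thus not shown by this test, and the calls in KO and in WT alone do not show that the genotypes differ.

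In non-injured kidneys no member and no other gene was called between the genotypes (0% of all tested, smallest adjusted p 0.0541). Their log2 fold changes in KO-NI against WT-NI ran from -0.49 (Plaur) to 0.32 (Plau), with adjusted p of 0.688 to 0.927. At an unadjusted p under 0.05 no member passed, where 5.60% of all genes did. The libraries of the 2 groups did not overlap for Plau and Plat, higher in KO-NI, and for Fga and Plaur, lower in KO-NI. The share of all genes without overlap was not counted for this comparison, so whether this is more than usual cannot be told. In the other comparisons of groups, both libraries of the first group lay above both of the second for 28.0% to 34.5% of all genes. Plaur had 1.63 and 1.70 FPKM in KO-NI libraries and 2.31 and 2.45 FPKM in WT-NI libraries, on 48 to 90 reads.

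Around the activators, genes of the inhibitors and of plasminogen binding also rose. Of 15 listed genes 11 were tested, of which 8 rose and 3 fell in KO and 6 rose and 1 fell in WT. The median log2 fold change was 1.13 in KO and 0.67 in WT. Among all tested genes 17.9% rose and 19.4% fell in KO, and 8.90% rose and 8.45% fell in WT. Anxa2 and S100a10 encode the partners of a cell surface complex that binds plasminogen and Plat. Anxa2 averaged 104 ± 13.5 FPKM in KO-I/R 3D libraries, against 13.3 ± 1.83 FPKM in KO-NI libraries, and 74.2 ± 9.58 FPKM in WT-I/R 3D libraries, against 13.8 ± 2.13 FPKM in WT-NI libraries (SD, n = 2 each). S100a10 averaged 209 ± 23.1 FPKM in KO-I/R 3D libraries, against 61.1 ± 3.02 FPKM in KO-NI libraries, and 153 ± 5.69 FPKM in WT-I/R 3D libraries, against 57.6 ± 1.34 FPKM in WT-NI libraries. Serpine2, which encodes an inhibitor of thrombin and urokinase, rose by a log2 fold change of 2.20 in KO (adjusted p = 0.000727, limma) and 1.64 in WT (adjusted p = 0.00648). Serpinb6a, a serpin gene of the same list, rose by 1.43 in KO and 1.18 in WT. Eno1, a glycolytic enzyme gene that also serves as a plasminogen receptor, had -0.33 in WT and was not called there, and fell by 0.61 in KO. Thbs1, the gene of thrombospondin 1, had 0.25 in WT and was not called there, and rose by 0.62 in KO (adjusted p = 0.0196, limma). With 1 library left out, the genes called higher numbered 2 in WT without WT-NI replicate 1 or WT-I/R 3D replicate 2, 4 without WT-NI replicate 2 and 5 without WT-I/R 3D replicate 1, and none was called lower. As TPM no gene of the list was called lower in either genotype.

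The following genes of that list were picked after their values were seen. Serpinf2, the gene of the plasmin inhibitor α2-antiplasmin, had 25.3 and 20.3 FPKM in KO-I/R 3D libraries and 25.7 and 28.2 FPKM in WT-I/R 3D libraries, against 36.4 and 39.8 FPKM in KO-NI libraries and 39.3 and 38.1 FPKM in WT-NI libraries, and fell in both genotypes (log2 fold change -0.74 in KO and -0.52 in WT). Plg, the gene of plasminogen itself, had no read in any injured or KO-NI library and at most 2 reads in a WT-NI library, so the transcript of the activators' substrate was at or near 0 at this depth.

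Coagulation factor genes moved in both directions. Of 25 listed genes 14 were tested, of which 3 rose and 4 fell in KO, where 17.9% of all tested genes rose and 19.4% fell, and 2 rose and 2 fell in WT, where 8.90% rose and 8.45% fell, with median log2 fold changes of -0.12 in KO and -0.22 in WT. F2, which encodes prothrombin, had 1 to 11 reads in any library and was not tested. F13b, the carrier subunit of the fibrin cross-linking factor, averaged 16.04 ± 4.54 FPKM in KO-I/R 3D libraries, against 67.1 ± 18.1 FPKM in KO-NI libraries, and 24.98 ± 4.03 FPKM in WT-I/R 3D libraries, against 59.6 ± 3.03 FPKM in WT-NI libraries (SD, n = 2 each), and fell in both genotypes. F13a1, the catalytic subunit, which macrophages are known to express, averaged 1.39 ± 0.539 FPKM in KO-I/R 3D libraries, against 0.0186 ± 0.0110 FPKM in KO-NI libraries, and 0.985 ± 0.0727 FPKM in WT-I/R 3D libraries, against 0.0106 ± 0.0150 FPKM in WT-NI libraries, and rose in both. F13a1 passed the filter on low values only through injured libraries. F5, the cofactor of the prothrombin-cleaving enzyme, fell by 2.05 on the log2 scale in WT and by 1.81 in KO. Pros1, which encodes the anticoagulant protein S, rose by 1.65 in KO and 1.02 in WT. With any 1 of the 4 WT libraries left out, at most 1 gene of the list was called in WT, and without KO-I/R 3D replicate 2 there were 4 calls in KO (1 higher and 3 lower). The median of the list in KO was smaller in size than the median of all genes as TPM (0.38). Kng2 (kininogen) and Tgm2 (transglutaminase 2) had -0.28 and -0.29 in WT and were not called there. In KO, Kng2 fell by 1.06 on the log2 scale (adjusted p = 0.00547, limma), and Tgm2 had -0.11 and was not called.

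Receptors that bind fibrinogen or sense thrombin, listed together with the fibrinogen-like gene Fgl2, rose in part. Of 16 listed genes 13 were tested, of which 9 rose in KO and 6 rose in WT and none fell in either. The median log2 fold changes were 1.24 in KO and 0.86 in WT. Listed genes under 1 FPKM in all non-injured libraries, such as Itgam, could be tested only if they were higher after injury. Among all tested genes 17.9% rose in KO and 8.90% in WT. Itgam and Itgb2 encode the chains of the integrin by which myeloid cells hold fibrinogen, and Itgam is also a macrophage marker. Itgam averaged 2.85 ± 0.821 FPKM in KO-I/R 3D libraries, against 0.0716 ± 0.00136 FPKM in KO-NI libraries, and 1.67 ± 0.329 FPKM in WT-I/R 3D libraries, against 0.0492 ± 0.0108 FPKM in WT-NI libraries (SD, n = 2 each). Itgb2 rose by 1.48 in WT, Fgl2, a fibrinogen-like protein gene, by 0.92 and Itga5 by 0.88 on the log2 scale (adjusted p = 0.0063, 0.0178 and 0.0195, limma). The 6 calls in WT became 1 without either WT-NI library, 0 without WT-I/R 3D replicate 2 and 3 without WT-I/R 3D replicate 1. The integrin gene Itgb1 (0.30) and the thrombin receptor gene F2r (0.38) were not called in WT, and rose in KO by 0.51 and 0.71 (adjusted p = 0.0272 and 0.00484, limma).

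Part of the acute phase list rose alongside fibrinogen in the same kidneys. Of 26 listed genes 13 were tested, of which 11 rose in KO and 6 rose in WT and none fell in either. Among all tested genes 17.9% rose in KO and 8.90% in WT. The median log2 fold changes of the list were 1.99 in KO and 1.05 in WT. Listed genes under 1 FPKM in all non-injured libraries, such as Lif and Serpina3n, passed the filter only through injured ones. Such genes could be tested only if they were higher after injury, so these counts depend partly on the filter. The acute phase genes Saa1, Saa2, Saa3, Crp, Apcs and Orm1, picked after their values were seen, were not tested. They had at most 0.523 FPKM in any library. C3, the central complement gene, averaged 115 ± 28.5 FPKM in KO-I/R 3D libraries, against 4.96 ± 0.820 FPKM in KO-NI libraries, and 69.4 ± 43.4 FPKM in WT-I/R 3D libraries, against 4.20 ± 0.697 FPKM in WT-NI libraries (SD, n = 2 each). Serpina3n, an acute phase serpin gene, rose by a log2 fold change of 6.42 in KO and 4.73 in WT (adjusted p = 0.00054 and 0.00454, limma). Lif, a cytokine of the interleukin-6 family, rose by 5.48 in KO and 4.39 in WT, and Osmr, the receptor chain for oncostatin M of that family, by 2.72 in KO and 1.83 in WT. Without KO-I/R 3D replicate 2 the calls in KO numbered 7, and without any 1 of the 4 WT libraries those in WT numbered 4. Cebpb (0.34) and Il6st (-0.14), the shared receptor chain, were not called in WT. In KO, Cebpb rose by 1.99 (adjusted p = 0.0377, limma), and Il6st had -0.0062 and was not called. Il6 itself had at most 13 reads in a library and was not tested. Socs3, a feedback target of STAT3 picked after its values were seen, had 19.3 and 34.1 FPKM in KO-I/R 3D libraries, against 0.521 and 1.84 FPKM in KO-NI libraries, and 8.06 and 15.6 FPKM in WT-I/R 3D libraries, against 0.818 and 1.68 FPKM in WT-NI libraries. In KO-I/R 3D compared with WT-I/R 3D all 13 tested genes of the list had log2 fold changes above 0 (median 0.73), and none was called. The median over all tested genes was -0.0025. All 12 tubular injury markers and all 10 fibroblast and pericyte markers were above 0 too. Of 12 proximal tubule markers and of 12 thick limb and distal tubule markers, 0 were.

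**Figure D5:**
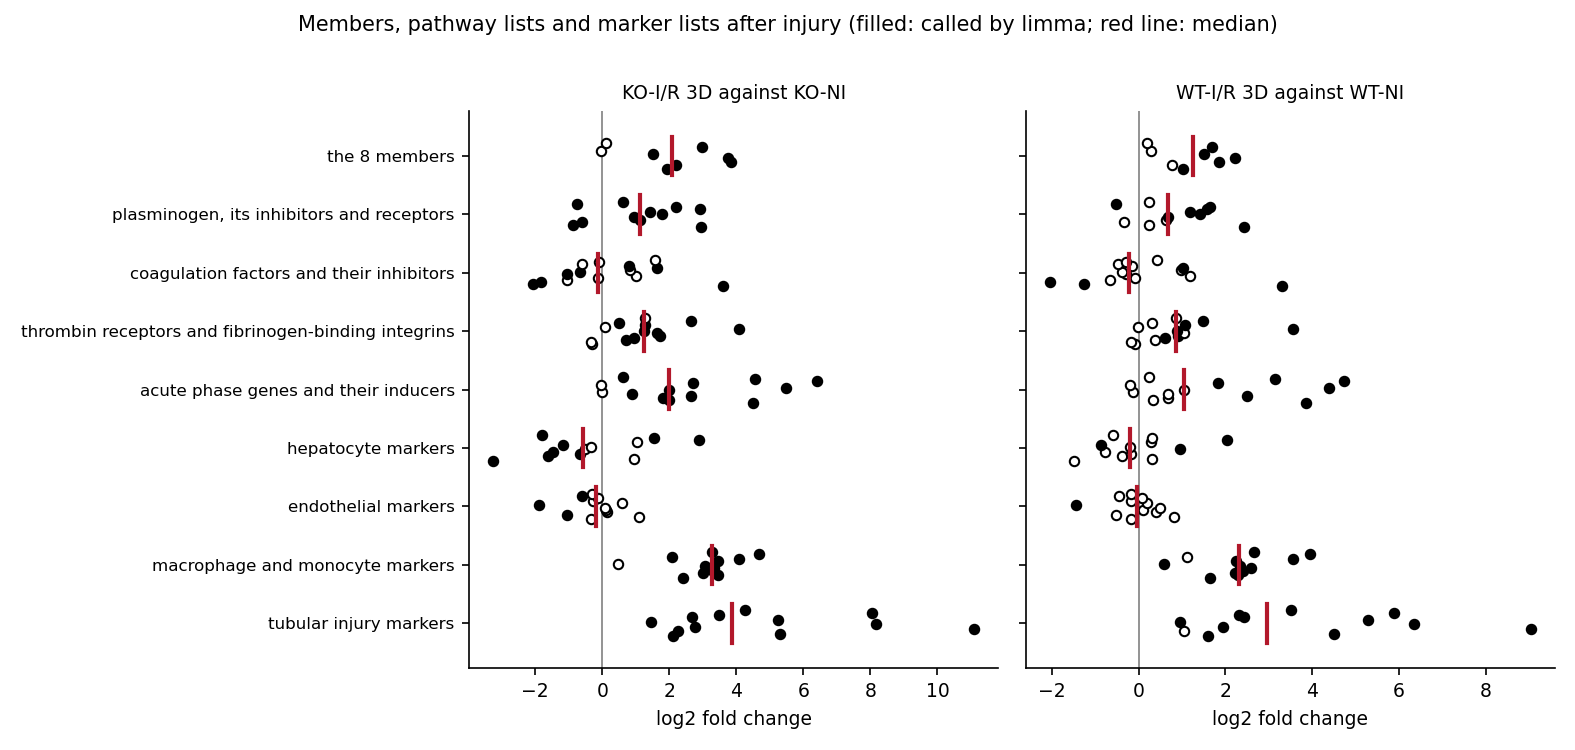
log2 fold change (horizontal axis) of the 8 members and of tested genes in 4 pathway lists and 4 marker lists, in KO-I/R 3D against KO-NI (left) and WT-I/R 3D against WT-NI (right); filled points were called by limma and red lines are medians. The members' median (2.07 in KO, 1.26 in WT) lies above those of the pathway lists of coagulation factors (-0.12 and -0.22) and of plasminogen genes (1.13 and 0.67) and below those of the macrophage and tubular injury markers.

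Liver transcripts were looked at because the chain genes are best known from liver. Of 15 hepatocyte markers 12 were tested, of which 2 rose and 6 fell in KO and 2 rose and 1 fell in WT. Among all tested genes 17.9% rose and 19.4% fell in KO, and 8.90% rose and 8.45% fell in WT. The summed level of the markers was 211 to 240 FPKM in KO-I/R 3D libraries and 268 to 289 in WT-I/R 3D libraries. It was 372 to 422 in KO-NI libraries and 386 to 393 in WT-NI libraries. Several of them are also made by the proximal tubule, such as Hnf4a, which averaged 80.0 ± 13.4 FPKM in KO-I/R 3D libraries, against 181 ± 21.0 FPKM in KO-NI libraries, and 108 ± 5.03 FPKM in WT-I/R 3D libraries, against 197 ± 8.55 FPKM in WT-NI libraries (SD, n = 2 each). The 3 markers that were not tested were at or near 0. Mup3 had no read in any library, Ahsg at most 1 and Tat at most 5. Alb had 1.91 and 0.431 FPKM in KO-I/R 3D libraries, against 11.9 and 7.96 FPKM in KO-NI libraries, and 2.72 and 2.50 FPKM in WT-I/R 3D libraries, against 8.23 and 6.77 FPKM in WT-NI libraries, and fell in KO (log2 fold change -3.25, adjusted p = 0.00446, limma) but was not called in WT (-1.48). Serpina1b averaged 12.3 ± 1.56 FPKM in KO-I/R 3D libraries, against 1.72 ± 1.03 FPKM in KO-NI libraries, and 8.05 ± 1.69 FPKM in WT-I/R 3D libraries, against 1.87 ± 0.199 FPKM in WT-NI libraries, and rose in both genotypes (log2 fold change 2.89 in KO and 2.04 in WT). Apoc3 rose by 0.94 in WT, and had -0.50 in KO and was not called there. Ttr fell in KO (-1.79, adjusted p = 0.00184, limma) and was not called in WT (-0.59), and Cyp2e1 was called in neither (-0.35 in KO and -0.20 in WT). The part of liver transcripts in the levels of the chain genes was not tested.

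Platelets carry fibrinogen protein, and of their 10 markers 3 were tested. Pf4 averaged 21.2 ± 5.70 FPKM in KO-I/R 3D libraries, against 1.02 ± 0.298 FPKM in KO-NI libraries, and 10.9 ± 0.0809 FPKM in WT-I/R 3D libraries, against 0.492 ± 0.424 FPKM in WT-NI libraries (SD, n = 2 each), and rose in both genotypes, whereas Itga2b (0.17 in KO and 0.01 in WT) and Ppbp (1.36 in KO and 2.29 in WT, adjusted p = 0.216 and 0.0945, limma) were called in neither. Other markers moved with injury as well. Of 12 tubular injury markers 12 rose in KO and 11 in WT, and of 10 fibroblast and pericyte markers 9 rose in each. Of 12 proximal tubule markers 12 fell in KO and 10 in WT, and of 12 markers of the thick limb and distal tubule 9 fell in KO and 5 in WT. Of 10 neutrophil markers 4 were tested, and 4 rose in KO and 2 in WT. Of 9 podocyte markers 4 fell in KO and 2 in WT. Beside these counts, 17.9% of all tested genes rose and 19.4% fell in KO, and 8.90% rose and 8.45% fell in WT. Some of these markers passed the filter on low values only through injured libraries. They include Havcr1, Krt20, Timp1, Cd44 and Sox9 (tubular injury), Lum and Postn (fibroblast), and Csf3r and Mmp9 (neutrophil). The part of these cell types in the levels of the members was not tested.

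Across the 8 libraries the members other than Plau and Thbd varied closely together, Thbd less so and Plau least. Pearson correlations of log2(FPKM + 0.1) were 0.958 to 0.972 among the chain genes and 0.96 to 0.982 between each of them and F3. Fgg correlated with Plaur at 0.986 and with Plat at 0.956, and Fga with Plat at 0.864. Thbd correlated with the members other than Plau at 0.638 to 0.717. Plau correlated with the other members at 0.275 to 0.607, with the highest value for Thbd. These points share the injured and non-injured groups, so the values describe the injury difference as much as anything else. Among 8586 genes of at least 5 FPKM in a group, those most like each member were Rtn4, Rdh10 and Tars for Fga, Srd5a1, Gbp2 and Hmgn3 for Fgb, and Ywhah, Adamts1 and Arl4c for Fgg. For Plaur they were Csf1, Samhd1 and Mob3a, for Plat Cxcl1, Aoc1 and Rack1, and for F3 Calm2, Morf4l2 and Nde1. The best of these reached 0.996 for Fga, 0.995 for Fgb, 0.996 for Fgg, 0.997 for Plaur, 0.997 for Plat and 0.994 for F3. It was lower for Plau (Wdr83os at 0.933, then Mesd and Mrpl18). Clns1a and Tmem35b were among the 3 genes most like Thbd. Rtn4, the gene most like Fga, had 39.7 and 48.8 FPKM in KO-I/R 3D libraries and 25.7 and 34.0 in WT-I/R 3D libraries. It had 23.8 and 21.5 in KO-NI libraries and 23.2 and 22.9 in WT-NI libraries. Its first WT-I/R 3D library lay close to the non-injured ones, as for Fga, which follows from its choice by correlation with Fga.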

How the data were processed

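RNA of 8 libraries, each pooled from 3 mice, was sequenced after poly-A selection. The authors deposited 1 table of FPKM per gene. HISAT2 2.0.5 and GRCm38.p6 (mm10) stand in the submitters' processing notes. The counting program, its use of strand and the authors' test are not given in the sources used here. The table's gene positions were not used, since they differ from GRCm38. Positions were taken from GENCODE M21 by gene ID. FPKM multiplied by gene length gave whole reads for 100% of values (tolerance 0.001 reads), with totals of 13961281 to 18480858. This depth gives 17 to 42 reads of Fgb in non-injured libraries, and ratio intervals cover counting error only.

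Sample labels gave the groups and replicate numbers. log2(FPKM + 0.1) of the 15650 of 55919 genes that reached 1 FPKM in 2 libraries or more was fitted with limma 3.58.1 in R 4.3.3 (lmFit, then eBayes with trended variance, 1 mean for each of 4 groups over 8 libraries, 4 residual and 2.89 prior degrees of freedom, Benjamini-Hochberg adjustment over all genes tested). The thresholds, adjusted p under 0.05 and absolute log2 fold change over 0.5, follow the paper. Spread between pools is all that the p-values measure. The method was tested on simulated data. The members and lists were chosen with earlier results of these data known. A gene under 1 FPKM in all non-injured libraries passed the filter only if it was higher after injury. Counts of rises among members and lists include such genes. Named genes are the 8 members, and of each list up to 4 called genes with the smallest adjusted p in WT-I/R 3D against WT-NI and up to 2 uncalled ones with the highest mean. For each member the 3 most correlated protein-coding genes are named. Some genes that these rules select are not reported here. Genes outside this rule are named as chosen after their values were seen, or as defining markers or factors. Alternatives were a pseudocount of 1, no filter, TPM, only the libraries of the comparison, the replicate number as a block, limma voom on the recovered reads (at least 10 in at least 2 libraries) and each library left out. The counts for pathway lists under these settings and the checks of the ratio of Fgg to Fga were added after seeing the data. Figures were drawn with matplotlib.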

Additional observations from a re-analysis of the deposited data

How the results depend on the processing

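With 2 libraries per group, calls depend on single libraries. KO injury and WT injury stand for I/R 3D against NI of each genotype. The member count in WT injury ran from 1 to 5 over the fits without 1 library, and the gene count from 287 (WT-I/R 3D replicate 2 left out) to 3872. Gene counts ran from 3355 (without the second KO-I/R 3D library) to 7351 in KO injury, from 0 to 662 in injured KO against injured WT, from 0 to 2220 (without the second KO-NI library) in non-injured KO against WT and from 0 to 232 for the difference of the responses. In injured KO against injured WT, 59 genes were called with no filter and 387 with voom, 82 higher and 305 lower, with 1 member (F3). In non-injured KO against WT, 1 gene was called as TPM and 2 with voom. Only the libraries of the comparison gave 3641 genes in KO injury. TPM put the median log2 fold change of all genes at 0.17 in WT and 0.38 in KO injury, and at 0.13 in injured KO against injured WT, and called Thbd in KO injury (0.53). Acute phase calls in WT injury numbered 6 with the settings reported and 11 with voom, and coagulation factor calls in KO injury 7 with the settings reported, 11 with voom and 4 when other groups were left out. The causes were not tested.

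Changes of sign met only log2 fold changes that were not called with the settings reported. As TPM, Plau had 0.36 in KO injury and 0.12 in injured KO against injured WT, Thbd had 0.12 in injured KO against injured WT, -0.042 in non-injured KO against WT and 0.16 for the difference of the responses, and F3 had -0.015 in non-injured KO against WT. Without 1 library, non-injured KO against WT ran from -0.12 to 0.26 for F3, -0.068 to 0.16 for Thbd and -0.38 to 0.16 for Fgg. The difference of the responses ran from -0.11 to 0.15 for Plat and -0.18 to 0.049 for Thbd. Injured KO against injured WT ran from -0.19 to 0.17 for Plau and -0.10 to 0.064 for Thbd, and KO injury from -0.26 to 0.17 for Plau. Of the other member values, 511 kept their side of the threshold and 15 lost it, all in WT injury, and 2 gained it (Thbd as TPM and F3 with voom).

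The replicate numbers were not used as pairs in the settings reported. Same-numbered libraries deviated together with correlations of 0.0273 to 0.173, which cannot show whether libraries were paired. A fit with a replicate block called 5 members and 3000 genes in all in WT injury, 6 members and 6104 genes in all in KO injury and 0 genes in the other comparisons. Low reads limit Fgb, Plaur and Tet1 in non-injured libraries.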
